A study of Mus musculus with 20 samples.

Results

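Tri-methylation of lysine 4 of histone H3 (H3K4me3) was compared between Ash2l-deleted and vehicle-treated fibroblasts across 16129 of the 22343 regions that the H3K4me3 libraries gave, those in which each of 2 cell lines had more than 20 reads in at least 1 of its conditions. The cells were KO cells, mouse embryonic fibroblasts with the genotype Ash2l fl/fl and Cre-ER, an inducible recombinase, immortalized by a retrovirus that encodes an shRNA against p19Arf. The groups were 5 days of 5 nM 4-hydroxytamoxifen (+HOT), which activates the recombinase so that an exon of Ash2l is deleted, and 5 days of vehicle, 100% ethanol (-HOT). Each group had 2 libraries, 1 from the line iMEF1 (KO1) and 1 from iMEF2 (KO2), so the 4 libraries of 20 in the series gave 1 value per region, line and condition, and the line was the replicate. The WT lines, the inputs and the H3K4me1 libraries were not used here, so an effect of HOT that does not need the floxed allele was not tested. Because the values were scaled to the coverage of the libraries and no spiked-in chromatin is described, a change is one of the share of reads in a region.

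H3K4me3 is laid down around the starts of transcribed genes by the KMT2 methyltransferases, which share the WRAD core of Wdr5, Rbbp5, Ash2l and Dpy30. Ash2l stimulates the tri-methylation step. CpG-rich promoters carry the mark most often, its domains extend downstream of the start site, and very wide domains are known for genes that define a cell type. The mark is read by the PHD fingers of several chromatin proteins and removed by the Kdm5 demethylases.

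The +HOT libraries had 2441698 reads in regions in KO1 and 6978481 in KO2, against 4588434 and 17532750 scaled reads in the -HOT libraries, so +HOT cells kept 53.2% of the -HOT reads in regions in KO1 and 39.8% in KO2. KO1 had fewer reads in regions, and its values carry more counting error. The label was checked against cell type markers. All 16 fibroblast markers had a region at their promoter (among them Col1a1, Vim and Prrx1), whose reads summed to 7086 in +HOT and 11244 in -HOT cells of KO1 and to 19004 in +HOT and 42309 in -HOT cells of KO2. None of the 8 blood markers had one. Of the others, 4 of 8 epithelial, 2 of 6 endothelial, 6 of 7 neural, 1 of 5 pluripotent and 1 of 5 muscle markers had a region, with a median of 99.4 reads or fewer in -HOT cells of KO1. The Ash2l promoter itself (chr8:26950030-26952534, mm9) had 281 reads in +HOT and 468.9 in -HOT cells of KO1, and 976 in +HOT and 1839 in -HOT cells of KO2. H3K4me3 at the start of the gene does not check the deletion of the exon.

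H3K4me3 fell across nearly the whole set of regions. The median of the tested regions was 108 reads in +HOT and 252 in -HOT cells of KO1, and 315 in +HOT and 988 in -HOT cells of KO2. The log2 ratio, +HOT over -HOT, had a median of -1.06 (KO1) and -1.63 (KO2), which is a fraction of 0.480 and 0.324 of the scaled -HOT reads. A paired fit of limma on log2(reads + 1) with the line as block called 13954 regions lower in +HOT cells, 86.5% of those tested, and 12 higher, 0.0744% (Benjamini-Hochberg adjusted p under 0.05). The fit gave all 16129 regions the same standard error, 0.391 on the log2 scale, so a call says that the mean log2 ratio of both lines was beyond about -0.79. Among the 13025 regions with more than 20 reads in both conditions of both lines, which did not enter through 1 condition alone, a refit called 12018 lower, 92.3%. By the ratio alone, 14166 regions (87.8%) had a log2 ratio under -0.58 in both lines and 10 (0.062%) one over 0.58. Single lines had more reads in +HOT than in -HOT cells in 158 regions of KO1 (0.98%) and 102 of KO2 (0.632%). These calls measure the fall shared by all regions. Centred on the median of each line, 3744 regions (23.2%) were lower and 1519 (9.42%) higher than the median change. Without the pairing by line limma called 0 regions, with 679 lower and 0 higher at an unadjusted p under 0.05. Values were scaled within a line only, and the -HOT medians of 252 and 988 differ between the lines. The unpaired fit puts this gap between the lines, whose source was not tested, into its error, so its count does not gauge the change within a line. The log2 ratios of both lines ranked the regions alike (Pearson r = 0.73, Spearman rho = 0.77 over 16129 regions, which share their peak calls and are not independent replicates).

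The 6214 regions left out by the read minimum were narrow, and 50% of them were 339.5 bp or less. Promoters made up 2057 of these. On either side of the minimum the values were close. The 386 regions whose lower line reached over 20 to 22 reads had a median log2 ratio of -1.05 (KO1) and -2.18 (KO2). For the 426 with over 18 to 20 reads it was -0.93 and -2.17.

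Among the tested regions, wide ones lost a smaller share of their reads than narrow ones. The 16129 regions spanned 200 to 15309 bp, with a median of 1765 bp. In the narrowest quintile (200 to 995 bp) the median was 14 reads in +HOT and 36.0 in -HOT cells of KO1, and 32 in +HOT and 168 in -HOT cells of KO2. In the widest quintile (2611 to 15309 bp) it was 321 in +HOT and 566 in -HOT cells of KO1, and 922 in +HOT and 2056 in -HOT cells of KO2. The median log2 ratio was thus -1.42 in the narrowest and -0.82 in the widest quintile of KO1, and -2.38 and -1.17 in those of KO2. The widest quintile fell less by 0.91 ± 0.43 on the log2 scale (SD, n = 2 lines), a difference of 0.61 in KO1 and 1.21 in KO2. This difference was not tested, because an exact two-sided sign test over 2 lines cannot go below p = 0.5. The share of regions called lower was 94.3% in the narrowest quintile, then 93.9%, 84.2% and 81.6%, and 78.5% in the widest. In promoters alone it was 97.3% in their narrowest and 77.9% in their widest quintile. Narrow regions often passed the read minimum through -HOT cells alone, with a median of 14 +HOT reads in KO1, so these shares are a description. The width groups were therefore formed again, a choice made after the data were seen, over the 13025 regions with more than 20 reads in both conditions of both lines. There the shares called lower by the refit were close, 94.4% in the narrowest and 90.98% in the widest quintile. The median log2 ratio was -1.31 in the narrowest and -0.81 in the widest quintile of KO1, and -2.22 and -1.17 in those of KO2, a difference of 0.78 ± 0.39 (SD, n = 2 lines). With no read minimum the difference was 0.68 in KO2 but -0.18 in KO1, so the direction in KO1 depended on the read minimum.

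**Figure D1:**
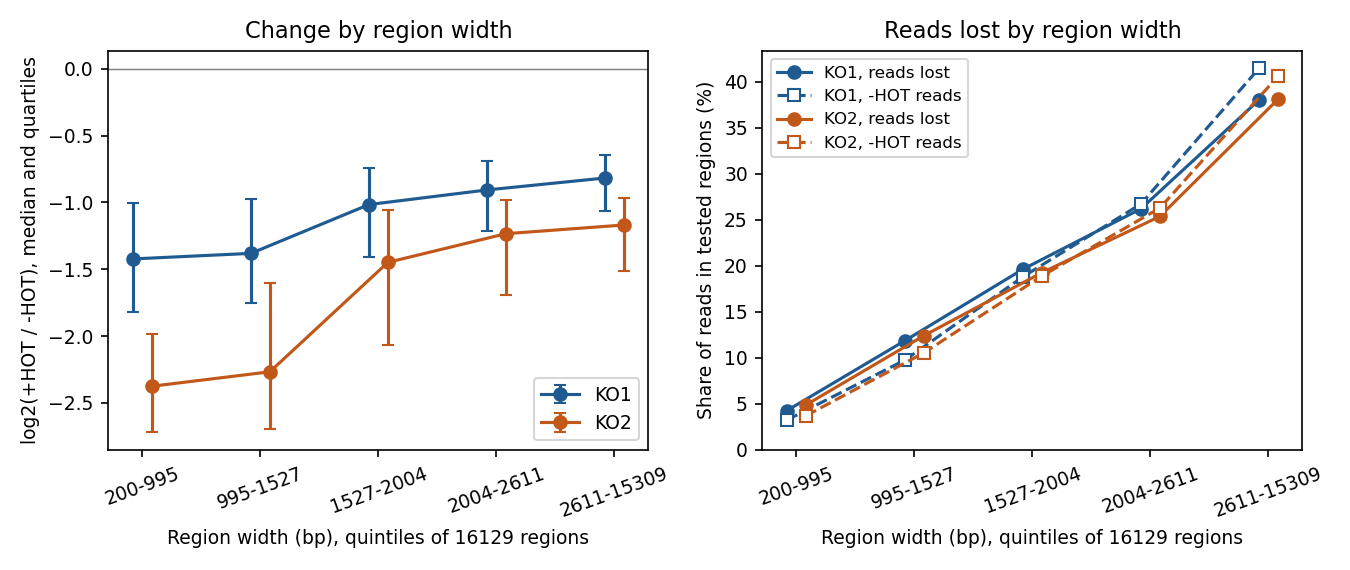
Region width and H3K4me3 loss in KO1 (blue) and KO2 (orange). Left, the median and quartiles of log2(+HOT / -HOT) in quintiles of the 16129 regions by width. Right, the share of lost reads (filled) and of -HOT reads (open) that each quintile held. Among these tested regions the median log2 ratio was -0.82 (KO1) and -1.17 (KO2) in the widest quintile and -1.42 and -2.38 in the narrowest, a difference that was -0.18 in KO1 with no read minimum. The widest quintile held 38.0% and 38.1% of the reads lost.

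Wide regions also held more reads in -HOT cells, so width and signal move together (Spearman rho = 0.90 in KO1 and 0.93 in KO2 over 16129 regions). Width was therefore also compared at a fixed level. Regions were first grouped into quintiles by -HOT reads per kb, a grouping chosen after the data were seen. In the middle quintile the wider regions had a median log2 ratio of -1.07 and the narrower ones -1.38 in KO1, and -1.41 and -1.88 in KO2. In the densest quintile the wider regions differed from the narrower ones by 0.05 in KO1 and 0.01 in KO2, and in the sparsest by 0.06 in KO1 and -0.15 in KO2. Regions were then grouped by their total -HOT reads. There the sign turned for the strong ones: in the middle, the next and the strongest quintile the wider regions had the lower log2 ratio, by a difference of -0.12, -0.15 and -0.05 in KO1 and of -0.34, -0.25 and -0.13 in KO2. At the same total a wider region has fewer reads per kb, so whether wide regions fell less depended on whether density or total was held fixed.

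**Figure D2:**
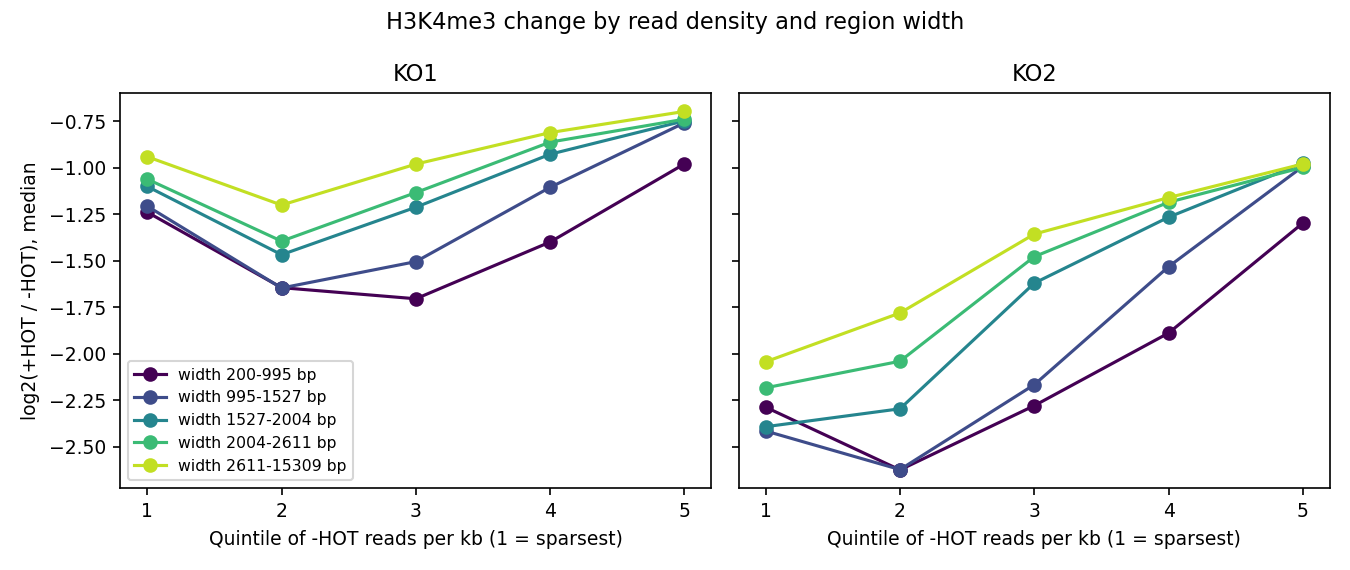
Median log2(+HOT / -HOT) against the quintile of -HOT reads per kb, with a line for each quintile of region width (dark, narrow; light, wide). In the densest bin all but the narrowest regions run close together. In the middle bin the medians span -1.70 (narrowest) to -0.98 (widest) in KO1 and -2.28 to -1.36 in KO2.

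The wide domains lost the most reads in absolute terms. The widest quintile held 38.0% of all reads lost in KO1 and 38.1% in KO2, and the narrowest 4.26% and 4.87%. The median loss per region was 240 reads in the widest and 23.0 in the narrowest quintile of KO1, and 1127 and 136 in those of KO2. Per kb the loss levelled off. It had a median of 35.2 and 61.3 reads per kb in the 2 narrowest quintiles of KO1 and 74.3, 76.0 and 73.0 in the others. In KO2 it had 193 and 318 in the 2 narrowest and 349, 352 and 347 in the others.

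The loss followed the signal but was spread more evenly than it. The decile of regions with the highest -HOT signal held 29.6% of the reads in +HOT and 26.2% in -HOT cells of KO1, and 29.1% in +HOT and 24.99% in -HOT cells of KO2. It held 22.4% of the reads lost in KO1 and 22.2% in KO2. By reads lost, 4111 regions of KO1 (25.5% of those tested) and 4398 of KO2 (27.3%) made up 50% of the loss. The regions that lost the most reads were seldom those that lost the largest share. Of the 1612 regions in the top decile by reads lost, 76 were also in the decile with the lowest log2 ratio in KO1 (4.71% of each list) and 42 in KO2 (2.61%). The top decile by reads lost was wide (median 3392 bp in KO1, 3648 bp in KO2), and 95.8% and 94.5% of it lay at promoters. The decile with the lowest log2 ratio was narrower (1103 and 1104 bp), and 66.9% and 64.5% of it lay at promoters. The lines shared 1178 regions of the top decile by reads lost (73.1% of each list) and 627 of the decile with the lowest log2 ratio (38.9%).

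**Figure D3:**
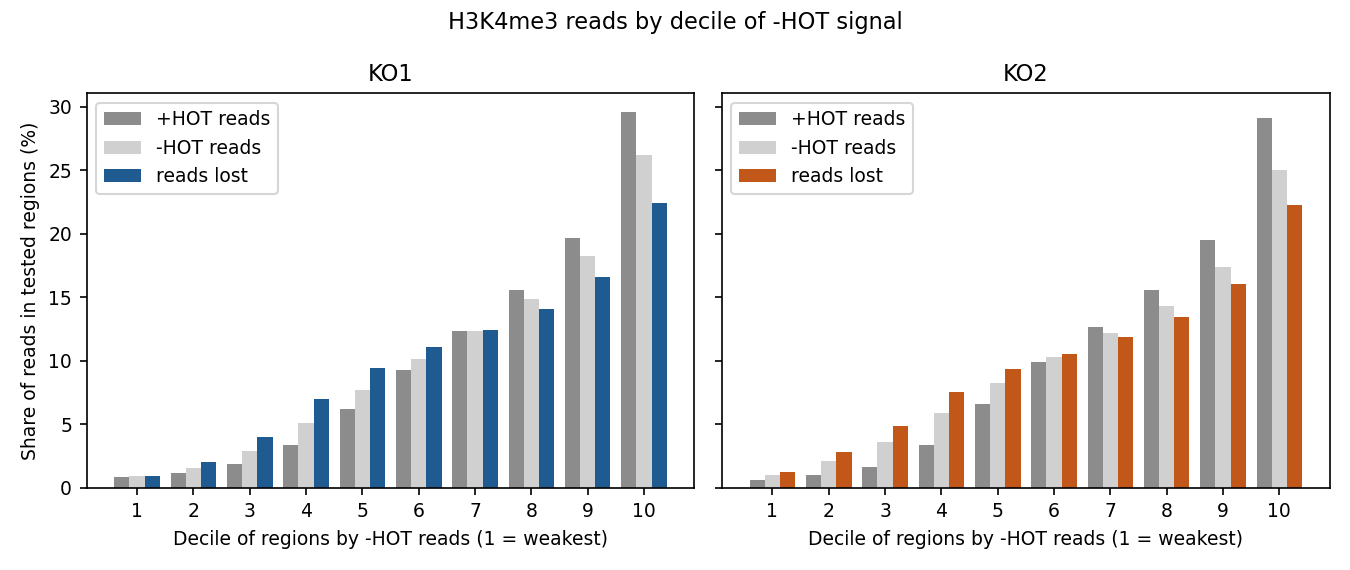
Share of the reads in tested regions held by each decile of regions, ordered by -HOT reads, for +HOT reads (dark grey), -HOT reads (light grey) and reads lost (colour). In deciles 1 to 6 of both lines the share of the loss is above the share of -HOT reads. In the strongest decile it is below it, 22.4% against 26.2% in KO1 and 22.2% against 24.99% in KO2.

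The promoter regions that lost most reads, each relative to all -HOT reads in regions of its line, were at Hoxa9, Pcdh7, Malat1, Tgif1, Zfp516, Ppp1r18, Sgk1 and Ccn1, and these 8 were 6507 to 14974 bp wide. The Hoxa9 region covers 14974 bp of the HoxA cluster of homeodomain factors (chr6:52170196-52185169). It had 1167 reads in +HOT and 2288 in -HOT cells of KO1, and 2900 in +HOT and 8266 in -HOT cells of KO2. In both lines +HOT was the lower library, and the region kept 51.0% and 35.1% of its reads (mean log2 ratio -1.24 ± 0.39 SE, limma adjusted p = 0.0027). At Pcdh7, a protocadherin of cell adhesion, there were 909 reads in +HOT and 1779 in -HOT cells of KO1, and 2781 in +HOT and 7611 in -HOT cells of KO2. Malat1, an abundant nuclear long non-coding RNA whose promoter is of low CpG content, had 1471 reads in +HOT and 2185 in -HOT cells of KO1, and 2940 in +HOT and 6855 in -HOT cells of KO2. Its mean log2 ratio of -0.90 was nearer to 0 than the median region although only Hoxa9 and Pcdh7 lost more by this measure. Tgif1, a homeobox repressor of TGF-beta targets, kept less: 445 reads in +HOT and 1145 in -HOT cells of KO1, and 1138 in +HOT and 4887 in -HOT cells of KO2. Zfp516, a zinc finger gene, was similar with a mean log2 ratio of -1.76. The regions at Ppp1r18, a regulatory subunit of protein phosphatase 1, Sgk1, a kinase induced by serum and glucocorticoids, and Ccn1, a matricellular growth-response protein, had mean log2 ratios of -1.07, -1.26 and -1.26. All 8 passed the limma test as fitted. With no read minimum Malat1 (adjusted p = 0.125) and Ppp1r18 (0.0718) did not, nor did Malat1 with a limma trend (0.052).

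The 6 widest tested promoter regions were at Hoxa9, Mab21l2, Trps1, Pcdh7, Zfp503 and Zfp516. Trps1, a GATA-type repressor of skeletal development (10997 bp), had 699 reads in +HOT and 1155 in -HOT cells of KO1, and 2678 in +HOT and 5854 in -HOT cells of KO2. Zfp503 (9646 bp) had 1071 reads in +HOT and 1631 in -HOT cells of KO1, and 2141 in +HOT and 4587 in -HOT cells of KO2. The region at Mab21l2, a developmental gene (12088 bp), differed between the lines in level. It had 184 reads in +HOT and 269 in -HOT cells of KO1, but 1958 in +HOT and 5012 in -HOT cells of KO2, which is 22.2 and 415 reads per kb in -HOT cells. +HOT was the lower library in both lines for these 3 regions. Each passed the limma test as fitted, and none did with no read minimum (adjusted p = 0.107 at Mab21l2, 0.115 at Trps1 and 0.142 at Zfp503).

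The loss differed by place. Promoter regions, within 3000 bp of a start site, numbered 13527 and had a median log2 ratio of -1.0 (KO1) and -1.47 (KO2). The 2602 regions away from promoters had -1.41 and -2.41, and 93.3% of them were called lower against 85.2% of the promoter regions. Many regions away from promoters entered through -HOT cells alone. Over the regions with more than 20 reads in both conditions of both lines, the shares called were 92.5% of the 1165 away from promoters and 92.2% of the 11860 at promoters. The median log2 ratios were -1.30 (KO1) and -2.31 (KO2) away from promoters, and -0.95 and -1.35 at promoters. Promoters still held 92.9% of the reads lost in KO1 and 91.5% in KO2. Among promoter regions the medians differed by the position of the centre relative to the start. Regions centred 300 to 1000 bp upstream of the start, 926 in number, had median log2 ratios of -1.44 and -2.17, and 97.1% were called. Those centred within 300 bp had -1.12 and -1.67. Those centred 300 to 1000 bp downstream, 5877 in number, had -0.89 and -1.26, and 79.0% were called. The 1131 centred 1000 to 3000 bp downstream had -0.81 and -1.24. Over the regions above the minimum in both conditions, the 534 centred 300 to 1000 bp upstream had -1.28 and -1.96, with 98.1% called, and the 5626 centred 300 to 1000 bp downstream had -0.87 and -1.23, with 89.3% called. These classes also differ in width, with medians of 906.5 bp for the 926 upstream regions and 2910 bp for the 1131 downstream ones, and position and width were not separated.

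A CpG class could be given to 98.3% of the tested promoter regions. High-CpG promoters numbered 11808, and their median was 157 reads in +HOT and 317 in -HOT cells of KO1, and 454 in +HOT and 1179 in -HOT cells of KO2. The 232 low-CpG promoters had 55.5 in +HOT and 123 in -HOT cells of KO1, and 148.5 in +HOT and 576 in -HOT cells of KO2. Pooled over signal levels, which differ between the classes, the log2 ratio hardly separated them. High minus low was 0.13 ± 0.22 (SD, n = 2 lines), with a value of -0.03 in KO1 and 0.29 in KO2, so the direction was not shared by the lines. In the weakest quintile of promoters by -HOT signal the high-CpG ones had the lower median log2 ratio in both lines, -1.46 against -1.04 in KO1 and -2.45 against -2.0 in KO2, with 95 low-CpG promoters. The same held in quintile 2, with -1.41 against -1.08 in KO1 and -2.06 against -1.83 in KO2 (61 low-CpG promoters). In quintile 3 it was -0.96 against -0.82 and -1.31 against -1.28 (30). In quintile 4 the high-CpG ones had the higher median, -0.83 against -0.97 and -1.14 against -1.38 (16). In the strongest quintile high- and low-CpG promoters had -0.76 and -0.76 in KO1 and -1.06 and -1.28 in KO2, with 30 low-CpG ones. By gene type, 364 promoters of lincRNAs had medians of -1.16 and -1.92 and the 12868 of protein-coding genes -1.0 and -1.45. The X chromosome (-0.97 and -1.52, 474 regions) and the autosomes (-1.0 and -1.47) were close.

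Of the 7 named targets with a promoter region in these tables, Atp9a, Rab27a, Flywch2, Mapk12 and Cdh3 lay among the strong losses, and Ash2l and Hsp90b1 were near the threshold. Olig1, Olfr456 and Cdh17 had no promoter region. Atp9a, a P4-type ATPase, had 22 reads in +HOT and 114 in -HOT cells of KO1, and 36 in +HOT and 356 in -HOT cells of KO2 (mean log2 ratio -2.80, limma adjusted p = 1.04e-10). Rab27a, a GTPase of granule secretion, had 18 reads in +HOT and 93.8 in -HOT cells of KO1, and 68 in +HOT and 582 in -HOT cells of KO2. Mapk12, the p38-gamma kinase, Flywch2 and Cdh3, the P-cadherin, had mean log2 ratios of -2.41, -2.48 and -2.07. Hsp90b1, a chaperone of the endoplasmic reticulum, had 316 reads in +HOT and 523 in -HOT cells of KO1, and 1076 in +HOT and 1962 in -HOT cells of KO2 (mean log2 ratio -0.80, limma adjusted p = 0.0488), and Ash2l had -0.82 (adjusted p = 0.0417). Neither passed with no read minimum (0.167 at Hsp90b1 and 0.154 at Ash2l), and Hsp90b1 did not with a pseudocount of 5 (0.0546). The regions of these 5 strong losses were 1151 to 2335 bp wide, against a median of 1905 bp for tested promoter regions. The promoters of Atp9a and Rab27a are shown because both are of the high-CpG class and lost a like share of their reads although their CpG counts differ. Each runs from 250 bp before to 50 bp after the annotated start on mm9, 5′ to 3′ on the strand of the gene, with CpG dinucleotides in capitals. Atp9a lies on the minus strand at chr2:168567251-168567550 and holds 65 CpG, and Rab27a on the plus strand at chr9:72892367-72892666 and holds 18.
Atp9a: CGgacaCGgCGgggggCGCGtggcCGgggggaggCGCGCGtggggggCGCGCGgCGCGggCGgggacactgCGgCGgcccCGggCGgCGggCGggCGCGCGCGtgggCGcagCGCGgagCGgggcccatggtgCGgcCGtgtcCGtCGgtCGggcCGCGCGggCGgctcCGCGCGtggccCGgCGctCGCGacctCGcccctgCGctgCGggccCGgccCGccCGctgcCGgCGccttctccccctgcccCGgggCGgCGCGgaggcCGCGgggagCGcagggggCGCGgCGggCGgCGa
Rab27a: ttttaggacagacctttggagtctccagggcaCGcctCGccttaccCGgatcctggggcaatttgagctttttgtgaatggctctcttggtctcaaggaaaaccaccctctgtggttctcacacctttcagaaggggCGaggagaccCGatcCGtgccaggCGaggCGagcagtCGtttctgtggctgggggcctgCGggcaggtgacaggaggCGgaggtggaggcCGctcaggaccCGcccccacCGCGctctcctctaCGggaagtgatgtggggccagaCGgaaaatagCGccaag

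Gene classes were compared with 1 promoter region per gene, the one with the highest -HOT signal. Of 12214 tested genes 10252 were called lower, 83.9%, and 0 higher, with a median of -0.97 (KO1) and -1.38 (KO2). More reads in +HOT than in -HOT cells were found at 38 genes of KO1 (0.311%) and 0 of KO2. Relative to the median change of all regions, 2029 genes (16.6%) were lower and 1322 (10.8%) higher. The 37 gene lists had medians that spanned 0.97 in KO1 and 1.42 in KO2 on the log2 scale. Lists share genes with each other and differ in signal and width, so no list is singled out. A count of calls depends on the fit. With the constant standard error a gene was called only beyond a fixed mean change, whereas a limma trend, which lets the error shrink with signal, called 95.5% of all genes and edgeR on recovered reads 96.6%, and with no read minimum limma called 50.7%. Where these fits moved a list's count by more than 1.5 times, their values stand beside it. The medians of the log2 ratios do not depend on the standard error.

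**Figure D4:**
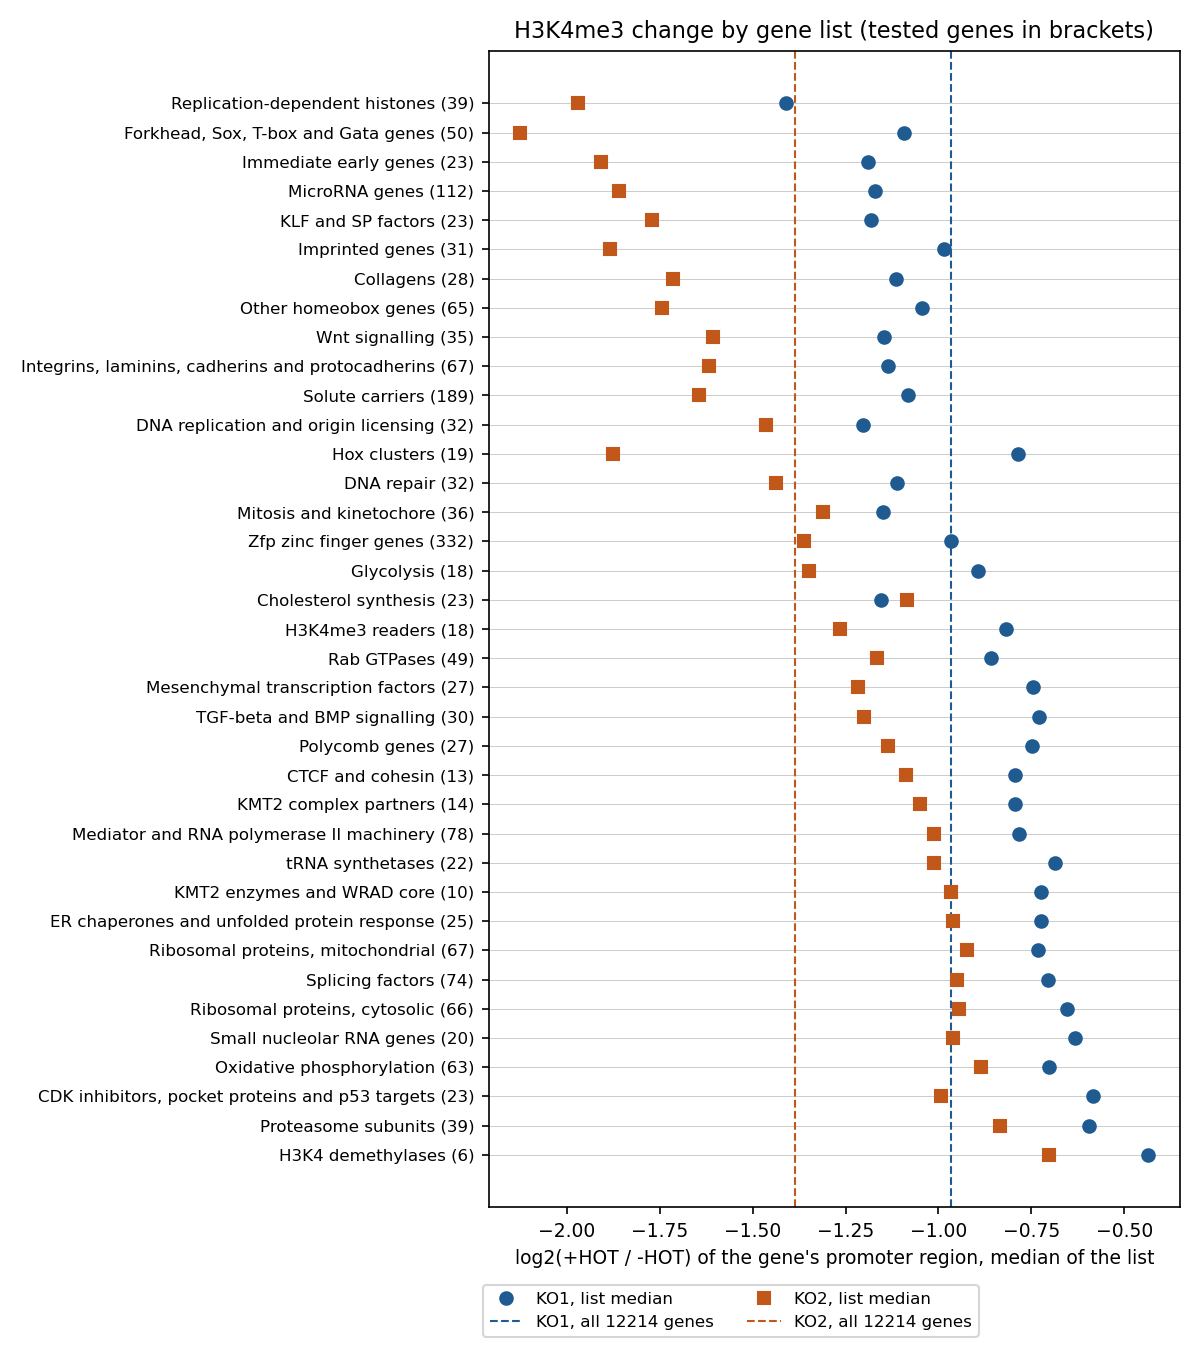
Median log2(+HOT / -HOT) of 37 gene lists in KO1 (circles) and KO2 (squares), with the number of tested genes in brackets. Dashed lines mark the median of all 12214 genes, -0.97 in KO1 and -1.38 in KO2. Replication-dependent histones lie on the low side of both dashed lines, and proteasome subunits and H3K4 demethylases on the high side of both.

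The lists of the marking machinery had medians above those of all genes, and also a stronger -HOT signal. The list of KMT2 enzymes and WRAD core had -HOT medians of 549 reads (KO1) and 1905 (KO2), and the H3K4 demethylases 559 and 1900, against 321 and 1205 for all genes. High-CpG promoters in the strongest signal quintile had median log2 ratios of -0.76 and -1.06. Signal and gene class were not separated. The list of KMT2 enzymes and WRAD core had 10 tested members, with medians of -0.72 and -0.97. Of these, 7 were called lower (70.0%, against 83.9% of all genes). The count was 10 with the limma trend and with edgeR, and 1 with no read minimum. Setd1b, a methyltransferase, had the strongest loss (461 reads in +HOT and 918 in -HOT cells of KO1, 1024 in +HOT and 3435 in -HOT cells of KO2). Kmt2c, which mono-methylates H3K4 at enhancers, had 403 in +HOT and 538 in -HOT cells of KO1, and 906 in +HOT and 1587 in -HOT cells of KO2, and did not pass as fitted (adjusted p = 0.122), though it did with the limma trend (0.0129) and with edgeR (0.0111). KMT2 complex partners had 10 of 14 called (71.4%) and H3K4me3 readers 16 of 18 (88.9%). Polycomb genes, which encode the repressive H3K27 and H2A machinery, had 22 of 27 (81.5%), near the 83.9% of all genes. With no read minimum these counts were 3, 4 and 7, and that fit called 50.7% of all genes. Of the 6 tested H3K4 demethylases 2 were called lower (33.3%), with list medians of -0.44 and -0.70. The count was 4 with the limma trend and with edgeR, and 1 with no read minimum. With the region nearest to the start of each gene, 3 were called and the medians were -0.76 and -1.01, against -1.0 and -1.46 for all genes. Relative to the median change of all regions, 0 of these 6 were lower and 4 higher. Kdm5c, which removes tri-methylation, had 515 reads in +HOT and 592 in -HOT cells of KO1, and 1365 in +HOT and 2116 in -HOT cells of KO2 (mean log2 ratio -0.42, adjusted p = 0.289). Kdm2b, which binds CpG islands, was the member that lost most, with a mean log2 ratio of -1.75.

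Replication-dependent histones, the clustered genes whose non-polyadenylated mRNAs are made in S phase, were the list with the lowest median in KO1. All 39 tested members were called lower against 83.9% of all genes (38 with the limma trend and with edgeR, 37 with no read minimum), and the medians were -1.41 and -1.97. Relative to the median change, 10 of the 39 were lower and 0 higher. The list was weak in signal, with -HOT medians of 113 reads (KO1) and 732 (KO2) against 321 and 1205 for all genes. High-CpG promoters in quintile 2 of -HOT signal (1 = weakest) had -HOT medians of 177 and 724. Their median log2 ratios were -1.41 and -2.06, and 97.4% were called, so the values of the histone list are not particular to it. Their range ran from Hist4h4 (59 reads in +HOT and 248 in -HOT cells of KO1, 215 in +HOT and 1010 in -HOT cells of KO2) to Hist1h4d (70 in +HOT and 119 in -HOT cells of KO1, 236 in +HOT and 698 in -HOT cells of KO2). Histone genes lie close together and have near-identical copies, so reads may be split between them. DNA replication and origin licensing had 30 of 32 members called (93.8%), with medians of -1.20 and -1.46. Mitosis and kinetochore had 34 of 36 called (94.4%), with medians of -1.15 and -1.31. With no read minimum 22 of the mitosis list were called, and 50.7% of all genes.

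Growth-response and developmental regulators were spread widely. The shares called below stand against 83.9% of all genes as fitted and 50.7% with no read minimum, and several are near these. Immediate early genes, induced within minutes of growth factor addition, had medians of -1.19 and -1.91, and 19 of 23 (82.6%) were called lower. Fosb, an AP-1 subunit, had 90 reads in +HOT and 464 in -HOT cells of KO1, and 286 in +HOT and 2002 in -HOT cells of KO2. Ier5 was at the other end, with 677 in +HOT and 799 in -HOT cells of KO1 and 1610 in +HOT and 2618 in -HOT cells of KO2, and did not pass. KLF and SP factors, zinc finger proteins that bind GC boxes, had 19 of 23 called (82.6%), with Klf5 lowest (mean log2 ratio -2.70) and Klf6 highest (-0.25, adjusted p = 0.53). Forkhead, Sox, T-box and Gata genes had 46 of 50 called (92.0%) and medians of -1.09 and -2.12, with Foxq1 lowest (-2.69) and Sox4 highest (-0.59, adjusted p = 0.133). Wnt signalling had 34 of 35 called (97.1%), and the mesenchymal transcription factors 21 of 27 (77.8%), against 19 and 8 with no read minimum. Hox clusters had 14 of 19 called (73.7%, and 9 with no read minimum), with medians of -0.79 in KO1 and -1.87 in KO2. Hoxd13 had the highest value of the Hox genes (698 reads in +HOT and 914 in -HOT cells of KO1, 1411 in +HOT and 2027 in -HOT cells of KO2). Imprinted genes had 29 of 31 called (93.5%, and 19 with no read minimum) and microRNA genes 96 of 112 (85.7%).

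Several lists of widely used cell machinery had medians above those of all genes in both lines, but cholesterol synthesis did not. Proteasome subunits had medians of -0.59 and -0.83, against -0.97 and -1.38 for all genes. Their -HOT medians were also higher, 431 reads (KO1) and 1510 (KO2), against 321 and 1205. Of the 39, 11 were called lower, 28.2% against 83.9% of all genes. That count rests on the constant standard error: it was 36 with the limma trend, 37 with edgeR, 28 with a minimum of 50, 23 with more than 20 reads in both conditions, and 5 with no read minimum. Relative to the median change, 1 was lower and 23 were higher. Psmd6, of the regulatory particle, had 299 reads in +HOT and 401 in -HOT cells of KO1, and 915 in +HOT and 1271 in -HOT cells of KO2 (mean log2 ratio -0.45, adjusted p = 0.254). Psmb8, an immunoproteasome subunit, was the member that fell most, with 51 in +HOT and 149 in -HOT cells of KO1 and 128 in +HOT and 929 in -HOT cells of KO2. Small nucleolar RNA genes, most of them within introns of host genes, had 10 of 20 called (50.0%) and tRNA synthetases 13 of 22 (59.1%). Splicing factors had 43 of 74 (58.1%), and CDK inhibitors, pocket proteins and p53 targets 12 of 23 (52.2%). These counts rest on the same standard error. With the limma trend and with edgeR they were 20 of 20, 22 of 22, 70 of 74 and 19 of 23, and with no read minimum 2, 1, 9 and 4. Over all genes the limma trend called 95.5%, edgeR 96.6% and the fit with no read minimum 50.7%. Cholesterol synthesis genes had medians of -1.15 in KO1 and -1.08 in KO2, and all 23 were called lower (11 with no read minimum). With the region nearest to the start of each gene the medians were -1.18 and -1.64, against -1.0 and -1.46 for all genes. The KO2 value thus depends on which region stands for the gene. Tm7sf2, a sterol reductase, fell most (-2.29) and Msmo1, a methylsterol oxidase, least (-0.83, not called with no read minimum, adjusted p = 0.15).

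KO1 and KO2 moved in opposite directions at few promoters. In 10415 promoter regions each line reached 100 reads in at least 1 condition. Among these, the KO1 log2 ratio exceeded that of KO2 by a median of 0.37, with 90% of regions between 0.04 and 1.09. Only 6 of them had more reads in +HOT than in -HOT cells of KO1 (Ifit1, Oasl2, Rtp4, Barx1, Hoxc10 and Usp18), and 0 in KO2. The 6 with the largest excess of KO1 over KO2 were Hoxc10, Ifit1, Syt7, Oasl2, Bcl11b and Rtp4, and 3 of these are interferon-stimulated genes. Ifit1, which binds foreign RNA (chr19:34714916-34716769), had 252 reads in +HOT and 73.5 in -HOT cells of KO1, but 129 in +HOT and 186 in -HOT cells of KO2. +HOT was thus the higher library in KO1 and the lower in KO2, with ratios of 3.43 (95% exact binomial interval 2.70 to 4.37, counting error only) and 0.69 (0.55 to 0.87). Oasl2, of the oligoadenylate synthetase family, had 166 reads in +HOT and 57.8 in -HOT cells of KO1, and 94 in +HOT and 153.5 in -HOT cells of KO2. Rtp4 had 176 in +HOT and 73.5 in -HOT cells of KO1, and 207 in +HOT and 362 in -HOT cells of KO2. The directions at Oasl2 and Rtp4 were those at Ifit1. These genes were chosen for a large difference between the lines, so the size of that difference and the intervals are no support. With 1 library per line and condition, the difference between the lines has no replicate check.

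**Figure D5:**
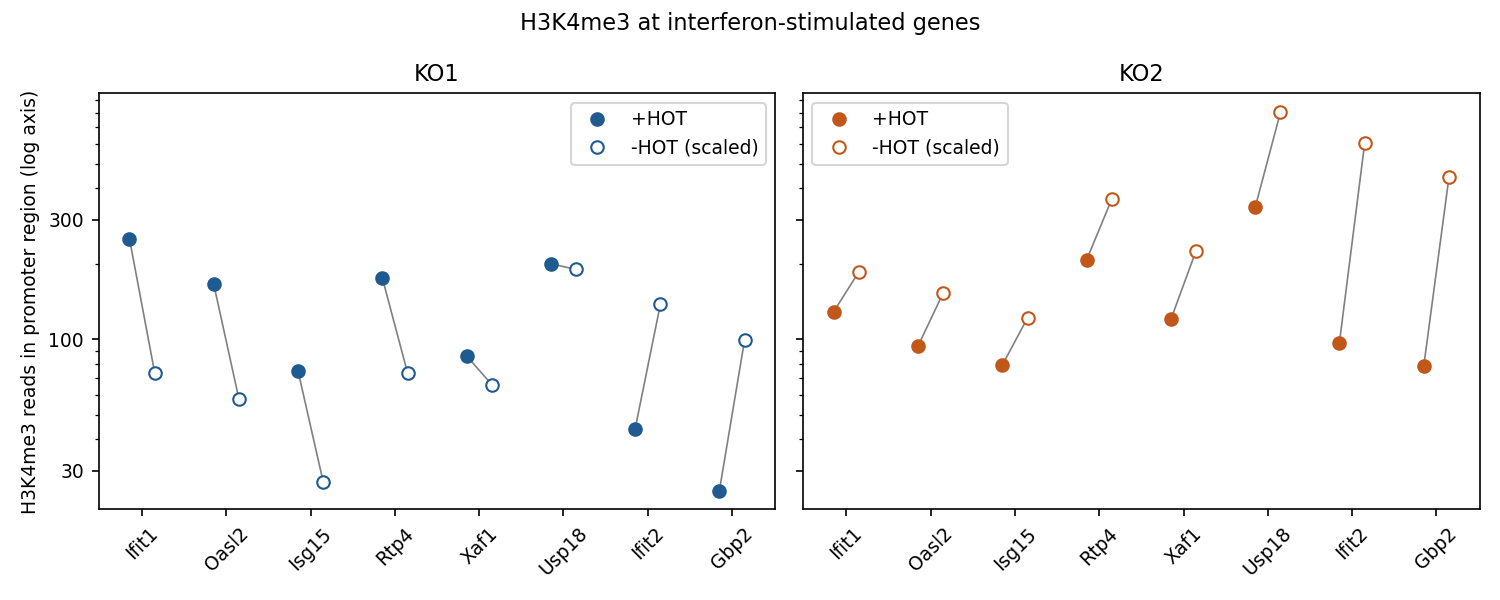
H3K4me3 reads (log axis) at the promoters of 8 interferon-stimulated genes in +HOT (filled) and -HOT (open, scaled) cells of KO1 and KO2, 1 library each, joined per gene. At Ifit1, Oasl2, Isg15 and Rtp4 the +HOT value lies above the -HOT value in KO1 and below it in KO2, and at Ifit2 and Gbp2 it lies below in both.

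Hoxc10, a posterior Hox gene, had 119 reads in +HOT and 92.3 in -HOT cells of KO1, and 243 in +HOT and 1004 in -HOT cells of KO2, so its level in -HOT cells also differed between the lines. Hoxc10 was called lower as fitted (limma adjusted p = 0.0386), although only KO2 was lower in +HOT cells. Syt7, a calcium sensor of exocytosis, and Bcl11b, a zinc finger factor, were lower in +HOT than in -HOT cells of both lines, with log2 ratios of -1.71 (KO1) and -4.00 (KO2) at Syt7 and -0.86 (KO1) and -3.01 (KO2) at Bcl11b. The 6 with the largest excess of KO2 over KO1 were Arhgef39, Isoc2a, Nkain2, Pappa, Ppfia2 and Vstm5, all lower in +HOT than in -HOT cells of both lines, with KO2 log2 ratios of -1.18 to -2.31 and KO1 log2 ratios of -1.77 to -3.05.

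The promoters of Ifit1 and Rtp4, and of Isg15, a ubiquitin-like modifier with 75 reads in +HOT and 27 in -HOT cells of KO1 and 79 in +HOT and 122 in -HOT cells of KO2, are shown because these genes moved together. The window is 250 bp before to 50 bp after the annotated start on mm9, 5′ to 3′ on the strand of the gene, with matches to GAAA, any 2 bases and GAAA, a pattern of interferon-stimulated response elements, in capitals. Both strands were searched, and overlapping matches were each counted. Isg15 was added after its values were seen. Ifit1 (chr19:34715129-34715428, plus strand) holds 2 matches, Rtp4 (chr16:23609755-23610054, plus strand) 4 and Isg15 (chr4:155574878-155575177, minus strand) 3. The same window of Oasl2 holds 0. So do those of the interferon-stimulated genes Xaf1 and Lgals3bp, which were also higher in +HOT cells of KO1, whereas Usp18 and Oas1b, higher there too, hold 2 each. Gbp2 and Ifih1 hold 1 each and were lower in +HOT cells of both lines, as were other genes with a match. Whether the pattern goes with the direction of change was not tested. Of the 10815 promoters of tested genes that matched the annotation, 314 hold a match, 2.90%.
Ifit1: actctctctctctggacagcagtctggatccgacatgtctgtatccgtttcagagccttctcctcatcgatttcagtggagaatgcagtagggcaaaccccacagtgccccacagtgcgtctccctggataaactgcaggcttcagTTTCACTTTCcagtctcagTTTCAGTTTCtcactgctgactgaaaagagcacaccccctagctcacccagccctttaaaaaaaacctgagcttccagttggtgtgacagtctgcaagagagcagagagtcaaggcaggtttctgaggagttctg
Rtp4: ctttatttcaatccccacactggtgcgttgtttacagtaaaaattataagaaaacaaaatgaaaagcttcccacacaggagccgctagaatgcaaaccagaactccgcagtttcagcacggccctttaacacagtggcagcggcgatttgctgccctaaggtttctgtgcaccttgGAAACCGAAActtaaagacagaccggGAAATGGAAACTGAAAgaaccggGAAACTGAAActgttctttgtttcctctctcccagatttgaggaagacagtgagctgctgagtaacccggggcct
Isg15: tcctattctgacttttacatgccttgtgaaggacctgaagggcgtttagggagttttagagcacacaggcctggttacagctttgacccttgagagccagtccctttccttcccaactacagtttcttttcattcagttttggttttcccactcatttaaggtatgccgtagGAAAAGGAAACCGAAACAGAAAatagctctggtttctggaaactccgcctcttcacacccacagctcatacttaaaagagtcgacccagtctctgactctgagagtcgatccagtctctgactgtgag

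Few regions were higher in +HOT cells of both lines. By the deposited annotation the 12 called higher lay away from promoters. In GENCODE, however, those nearest to Zfp420, Gm17635 and Gm10033 are centred 261, 698 and -143 bp from a start. They were 231 to 606 bp wide and held at most 65 reads. In all 12 the -HOT value of KO1 was 20 or less, so they entered through +HOT and had to differ there, and their count is no support. The nearest annotated gene of 5 of the 12 in GENCODE was a Zfp zinc finger gene, which is the case for 3.88% of the 2602 regions away from promoters. This was not tested and is a description only. The 12 were narrower, with a median of 338.5 bp against 973 bp, and some of them lay close together. The widest of the 12, chr7:30659470-30660075, is centred 261 bp from a start of Zfp420 in the GENCODE annotation, and had 40 reads in +HOT and 18 in -HOT cells of KO1, and 65 in +HOT and 36.6 in -HOT cells of KO2. Among regions that reached 100 reads in both lines the largest mean log2 ratio was that of Ifit1, 0.62 (adjusted p = 0.118), and none passed as higher. A region near Zfp329 on chromosome 7 followed Ifit1 there, with 130 reads in +HOT and 76.5 in -HOT cells of KO1 and 111 in +HOT and 102 in -HOT cells of KO2.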

How the data were processed

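H3K4me3 chromatin immunoprecipitation with single-read sequencing was done on KO1 and KO2 cells. The authors trimmed reads with Trim_Galore, aligned them to mm9 with BWA, removed duplicates and regions on the ENCODE blacklist, called peaks with MACS2 and annotated them with Homer. Versions are not given in the sources used here. The deposited +HOT values are whole read counts per region. The deposited -HOT values are a signal, counts that the authors divided by 1.333 in KO1 and 1.01 in KO2 to reach the coverage of the +HOT library; 100% of them came out whole after multiplication (tolerance 0.001). The deposited annotation gives the distance to the start site of the nearest gene. Columns of the authors' own comparisons, which hold fold changes, were not used.

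Ratios were taken as log2((+HOT + 1) / (-HOT + 1)) within a line. Each line had to have more than 20 reads in at least 1 condition of a region, and such regions were fitted in limma 3.58.1 (R 4.3.3) with the line as block, since same-numbered libraries come from the same cell line (their deviations from the condition means correlate at r = 0.59), and p-values were adjusted over all 16129 regions. The labels do not name separate cultures, so the line was the replicate. The error behind the p-values is the spread between the 2 lines pooled over all regions. A p-value thus does not measure how far the lines differed at its own region. Promoters lie within 3000 bp of a start. Between 500 bp before and 2000 bp after the start, high-CpG promoters have a 500 bp window with a GC fraction of at least 0.55 and an observed/expected CpG ratio of at least 0.6, and low-CpG promoters have no window with a ratio of 0.4 or more. Gene annotation and sequence were GENCODE vM1 and NCBIM37, the same build as mm9. Named genes were the targets the study names, the 8 largest read losses, the 6 widest promoters, the 6 with the largest line difference in each direction, the ends of each gene list and the largest rises at 100 reads or more. The members, lists and rules were chosen with earlier results of these data known. Alternatives were the block, the pseudocount, the read minimum, centring, the limma trend, edgeR 4.0.16 on the recovered reads, each line alone, the CpG threshold and the choice of region per gene. Width and place were also compared over regions with more than 20 reads in both conditions of both lines, chosen after the data were seen. Intervals of ratios cover counting error only, and reads are not independent molecules.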

Additional observations from a re-analysis of the deposited data

Results flagged for a closer look

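The following promoters moved in opposite directions in the 2 lines. They were higher in +HOT than in -HOT cells of KO1 and lower in +HOT than in -HOT cells of KO2. The difference was not tested, since each line has 1 library per condition. The log2 ratio was 1.76 in KO1 and -0.53 in KO2 at Ifit1, 1.51 and -0.70 at Oasl2, 1.44 and -0.62 at Isg15, and 1.25 and -0.80 at Rtp4. It was 0.40 and -0.89 at Barx1, a homeobox gene, 0.38 and -0.91 at Xaf1, 0.36 and -2.04 at Hoxc10, and 0.075 and -1.26 at Usp18, the protease that removes Isg15 from proteins. At Barx1, Xaf1, Hoxc10 and Usp18 the counting interval of the KO1 ratio included 1.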

How the results depend on the processing

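Without the line block limma called 0 regions lower and 0 higher (679 and 0 at an unadjusted p under 0.05), and 39 calls of named genes were lost. The lines were not scaled to each other, so that fit takes their difference in level, whose source was not tested, as error and does not gauge the change within a line. The count of lower regions was otherwise 12018 to 15238, with edgeR on recovered reads highest, except after centring on a median log2 ratio of 0 (3744). The 12 higher regions became 3 with a pseudocount of 5, 28 with no read minimum, 1 with a minimum of 50, 2 with more than 20 reads in both conditions, 2 with the limma trend, 3 with edgeR and 1519 after centring. By ratio, 14166 regions were lost and 10 gained, against 8664 and 1 beyond a log2 ratio of 1, and 2519 and 715 after centring. No gain was left (0) with a minimum of 50 or with more than 20 in both conditions, and KO1 or KO2 alone gave 14229 to 21765 losses and 44 to 77 gains. The width difference was 0.25 with no read minimum. It was 0.78 with more than 20 reads in both conditions, an alternative chosen after the data were seen. The share of the loss in the strongest decile was 19.8% with a minimum of 50, 28.4% with none and 53.8% with each line scaled to a median log2 ratio of 0. For promoters these were 93.4%, 91.1% and 105.7%, since regions elsewhere then gained on balance, and for the widest quintile 34.0%, 47.9% and 66.5%. High minus low CpG was -0.026 in KO1 alone and 0.29 in KO2 alone in single lines. The difference between gene lists stayed within 0.97 to 1.42 in single lines.

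After centring, genes that fell less than the median region turned positive: Ash2l 0.52, Barx1 1.10, Ccn1 0.080, Hist1h4d 0.18, Hoxa9 0.10, Hoxc10 0.50, Hoxd13 0.89, Hsp90b1 0.55, Ier5 0.87, Kdm5c 0.93, Klf6 1.10, Kmt2c 0.73, Mab21l2 0.39, Malat1 0.45, Msmo1 0.51, Pcdh7 0.13, Ppp1r18 0.27, Psmd6 0.89, Sgk1 0.084, Sox4 0.75, Trps1 0.42, Usp18 0.75, Xaf1 1.08 and Zfp503 0.49. Hoxc10 was 0.36 in KO1 alone and -2.04 in KO2 alone. Of the named genes, 10 calls were lost with no read minimum (Ash2l 0.154, Hist1h4d 0.0531, Hoxc10 0.148, Hsp90b1 0.167, Mab21l2 0.107, Malat1 0.125, Msmo1 0.15, Ppp1r18 0.0718, Trps1 0.115 and Zfp503 0.142, each a limma adjusted p), 2 with the limma trend (Malat1 0.052, Hoxc10 0.0595), 1 with a pseudocount of 5 (Hsp90b1 0.0546) and 8 after centring (Bcl11b, Kdm2b, Nkain2, Pappa, Setd1b, Tgif1, Vstm5 and Zfp516). Kmt2c was gained with the limma trend and with edgeR, and Ifit1, Isg15, Oasl2 and Rtp4 were higher than the median change after centring. KO1 had fewer reads, so weak and narrow regions were less certain there.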

Other observations

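The interferon-stimulated genes were looked at as a group after Ifit1, Oasl2 and Rtp4 had been seen, so the list of 45 genes was chosen with values known and was not tested. Xaf1, Usp18, Ifit2 and Gbp2 are named for the same reason. Of these, 39 had a promoter region and 33 were in the fit, where 20 were called lower (60.6%, against 83.9% of all genes) and 0 higher. In KO1, 8 of the 33 had more reads in +HOT than in -HOT cells, against 0.311% of all 12214 genes, and in KO2 the count was 0. The median log2 ratio of the list was -0.52 in KO1 and -1.54 in KO2, against -0.97 and -1.38 for all genes. The list was not uniform. Ifit2, a neighbour of Ifit1 in the same gene cluster, had 44 reads in +HOT and 138 in -HOT cells of KO1, and 97 in +HOT and 605 in -HOT cells of KO2. Gbp2, an interferon-inducible GTPase, had 25 in +HOT and 99.8 in -HOT cells of KO1, and 78 in +HOT and 443 in -HOT cells of KO2. The plot of reads at 8 of these promoters shows both kinds. In the promoter window described for Ifit1, 14 of 32 members of the list hold the GAAA pattern (43.8%, against 2.90% of all 10815 promoters).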
